A study of Mus musculus with 15 samples.

Results

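The genes described here are 42 genes of the cell cycle and of DNA replication, out of 21662 genes with a row in both count files of the series. They were chosen by name: a gene belongs to the group when its symbol in both files is on a list of 19 replication genes, 8 regulators of G1 and of the step from G1 to S phase, 4 genes for the S, G2 and M phase cyclins and Cdk1, and 11 genes of mitosis. The rule uses no measured value, and all 42 genes had enough reads to be tested in both experiments. RNA-seq gave their mRNA levels in 15 cultures of mouse embryonic stem cells (ESC) that differ in Hmga1, an abundant chromatin protein that binds AT-rich DNA. The question put to these genes is whether cells without Hmga1 express the genes of cell division at other levels than the parental cells. The study also profiled the cell cycle and the proliferation of KO cells, which is not analysed here.

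The samples come from a KO experiment and a full-deletion experiment, with 6 groups in all. In the KO experiment, 3 samples of the parental wild-type line (WT a, b and c) stand beside 2 samples of an Hmga1 KO line, in which Cas9 shifted the reading frame, and 2 samples each of that KO line carrying an inserted Hmga1 or Hmga2 cDNA (the Hmga1 and Hmga2 add-backs). In the full-deletion experiment, 3 further WT samples stand beside 3 samples of a line from which the whole coding sequence of Hmga1 was cut out with a pair of guides. All cells descend from the 159 ESC line of mixed 129Sv and C57Bl/6 background, which carries a biotin ligase driven by the CAG promoter, and the same promoter drives the cDNAs of the add-backs. All were grown on feeders or gelatine, in serum with LIF. Each genotype is 1 cell line, the edited ones grown from 1 cell, and replicates are separate cultures, so that every test below measures the spread between cultures of a line and not between independently made lines. No drug treatment was compared. The letters a, b and c of the KO experiment are batches: libraries of one letter were prepared together and shared a flow cell, and batch c holds WT c alone.

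Cells copy their DNA in S phase and divide in M phase. In G1, D-type cyclins with Cdk4, and then E-type cyclins with Cdk2, inactivate the retinoblastoma protein and free E2F factors, which turn on the genes of replication. Replication starts where the origin recognition complex (Orc1, Orc6), Cdc6 and Cdt1 load the Mcm2 to Mcm7 helicase, while geminin (Gmnn) keeps origins from being loaded again. Cyclin A and the B-type cyclins with Cdk1 carry the cell through G2 into mitosis, where kinases such as Plk1, Aurka and Aurkb, the checkpoint kinases Bub1 and Bub1b, and motors and kinetochore proteins such as Kif11, Cenpe and Cenpf build the spindle and attach the chromosomes. ESC are known for a short G1 and a large share of cells in S phase, so that most of these genes are highly expressed in them.

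Counts on genes summed to between 13465399 and 34952136 per sample in the KO experiment and between 14832310 and 21708492 in the full-deletion experiment. Each batch a library was deeper than each batch b library, with sums of 30742898 or more against 14585417 or less. Hmga1 itself had 221 to 464 CPM (read counts scaled to the size of the library) in WT and 96.1 to 217 in the KO line, where a frameshift need not remove the mRNA. It had 310 to 357 CPM in the other WT group and 10.9 to 12.3 in the full deletion. Hmga1 stood at 123 to 184 CPM in the Hmga1 add-back, within the range of the KO samples, and Hmga2 at 222 to 249 CPM in the Hmga2 add-back against 12.8 to 23.8 in the other 5 groups. One library stood apart from the rest: in WT b of the full-deletion experiment the 10 most abundant genes took 8.78% of the counts, against 4.67% to 5.38% in the other samples of that experiment, and its normalization factor was 0.752. The counts of called genes in that experiment are therefore given with and without it. Markers of pluripotency summed to 5796 to 6397 CPM in WT, 6681 to 6772 in KO, 6658 to 6717 in the Hmga1 add-back and 6309 to 7208 in the Hmga2 add-back, so that both KO samples lay above every WT sample. In the other experiment they summed to 5154, 8008 and 4971 CPM in WT a, b and c, of which b is the highest, and to 4719 to 4794 in the full deletion. Markers of feeder fibroblasts, on which these cells can be grown, summed to 13.5 to 18.5 CPM in WT, 20.8 to 25.4 in KO, 17.7 to 32.3 in the Hmga1 add-back and 21.0 to 32.1 in the Hmga2 add-back. In the other experiment they summed to 10.7 to 13.9 CPM in WT and 17.9 to 18.1 in the full deletion. Enough reads for a test were found for 6 of 12 feeder markers in the KO experiment, against 5 in the other. Markers of early differentiation summed to 107 to 130 CPM in WT, 79.1 to 96.5 in KO, 70.3 to 86.5 in the Hmga1 add-back, 72.8 to 77.95 in the Hmga2 add-back, 63.3 to 82.4 in the other WT group and 82.9 to 85.7 in the full deletion. The part of these levels in the results below was not tested. Bulk RNA cannot tell fewer cells in a phase from less mRNA per cell.

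The promoters of the replication and the mitosis genes differ in 2 of 3 motifs searched and share the other. A promoter of 300 bases (250 before and 50 after the transcription start, RefSeq, GRCm38.p6) was found for 33 of the 42 genes, and the other 9 genes have none here. E2F sites were searched on both strands as TTTCCCGC, TTTGGCGC, TTTCGCGC or TTTGCCGC, the cell cycle homology region (CHR) as TTTGAA, and the CCAAT box as CCAAT. None of these patterns contains another, though neighbouring matches can share bases at their ends. An E2F site was present in 8 of 16 replication promoters (50%) and in 0 of 9 mitosis promoters, against 2.61% of the promoters of 27025 genes in the same table. A CHR was present in 7 of 9 mitosis promoters (77.8%) and 2 of 16 replication promoters (12.5%), against 20.2% of all. A CCAAT box was present in 9 of 9 mitosis promoters and 14 of 16 replication promoters, against 41.1% of all. The genes with 2 starts in the table, Ccnd3 and Mcm7, were counted as holding a motif when either window did. A match describes the letters and is not a measured binding site. Shown here, 5′ to 3′ on the gene's strand with matches to the searched motifs in capitals, are the promoters of the replication and the mitosis gene that moved most between batches, and of those with the largest change in the full deletion, among genes with a promoter in the table.
Pola1, the catalytic subunit of DNA polymerase alpha (chrX:93632106-93632405, minus strand, 1 E2F site and 1 CCAAT box): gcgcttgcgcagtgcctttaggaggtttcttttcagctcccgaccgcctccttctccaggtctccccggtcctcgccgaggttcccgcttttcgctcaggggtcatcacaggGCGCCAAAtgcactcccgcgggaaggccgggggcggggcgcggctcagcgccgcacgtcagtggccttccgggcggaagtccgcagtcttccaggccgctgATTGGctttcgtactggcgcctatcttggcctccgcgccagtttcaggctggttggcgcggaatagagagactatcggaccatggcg
Top2a, the topoisomerase that untangles sister chromatids (chr11:99024140-99024439, minus strand, 2 CHR and 6 CCAAT boxes): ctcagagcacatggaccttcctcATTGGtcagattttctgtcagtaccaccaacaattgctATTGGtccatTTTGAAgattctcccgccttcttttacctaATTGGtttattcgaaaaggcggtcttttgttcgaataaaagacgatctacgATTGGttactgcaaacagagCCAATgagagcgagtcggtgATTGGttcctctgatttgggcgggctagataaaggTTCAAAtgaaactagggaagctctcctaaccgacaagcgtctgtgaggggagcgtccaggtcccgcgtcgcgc
Rrm1, the large subunit of ribonucleotide reductase (chr7:102441445-102441744, plus strand, 2 CCAAT boxes): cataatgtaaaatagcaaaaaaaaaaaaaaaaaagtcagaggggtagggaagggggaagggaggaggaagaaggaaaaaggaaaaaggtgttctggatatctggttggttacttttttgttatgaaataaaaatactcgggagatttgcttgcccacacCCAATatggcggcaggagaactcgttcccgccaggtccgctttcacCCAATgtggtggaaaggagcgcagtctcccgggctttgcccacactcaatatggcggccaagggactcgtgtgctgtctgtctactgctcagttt
Aurka, a kinase of the spindle poles (chr2:172370521-172370820, minus strand, 1 CHR and 2 CCAAT boxes): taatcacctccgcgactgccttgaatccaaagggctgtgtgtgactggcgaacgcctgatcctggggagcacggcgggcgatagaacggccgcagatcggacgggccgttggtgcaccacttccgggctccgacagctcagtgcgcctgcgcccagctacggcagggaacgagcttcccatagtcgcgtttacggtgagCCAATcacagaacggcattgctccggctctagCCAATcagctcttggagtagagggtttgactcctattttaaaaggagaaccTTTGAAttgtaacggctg

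Levels of different genes were compared per length, as CPM divided by the exon length in kilobases (RPKM). In WT of the KO experiment the replication and mitosis genes ranked among the abundant mRNAs, with Top2a at 296 ± 62.0 RPKM (SD, n = 3), Mcm3 at 253 ± 29.0 and Pcna at 229 ± 21.5. The order of these highest 3 is not settled, since neighbours differ by less than their SD. The lowest levels belonged to E2f1, the E2F transcription factor, at 5.06 ± 0.25 RPKM, and to the cyclins Ccne2 at 12.2 ± 1.67, Ccnd2 at 12.6 ± 2.12 and Ccnd3 at 14.5 ± 2.41. Ccne2, Ccnd2 and Ccnd3 do not differ beyond their spread, whereas E2f1 lay below all of them. The least expressed gene of the group, E2f1, still stood above 64.6% of all genes in the files. The WT group of the full-deletion experiment had E2f1, Ccne2 and Ccnd2 at the bottom as well, at 3.55 ± 0.52, 11.8 ± 1.26 and 12.2 ± 0.64 RPKM, while Mcm3 at 493 ± 209, Mcm2 at 388 ± 61.1 and Aurka at 322 ± 145 RPKM stood highest. In Mcm3, Mcm2 and Aurka WT b of that experiment was the highest of the 3 samples. These tables were made and normalized separately, so WT levels of the experiments are set side by side without a test.

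**Figure D1:**
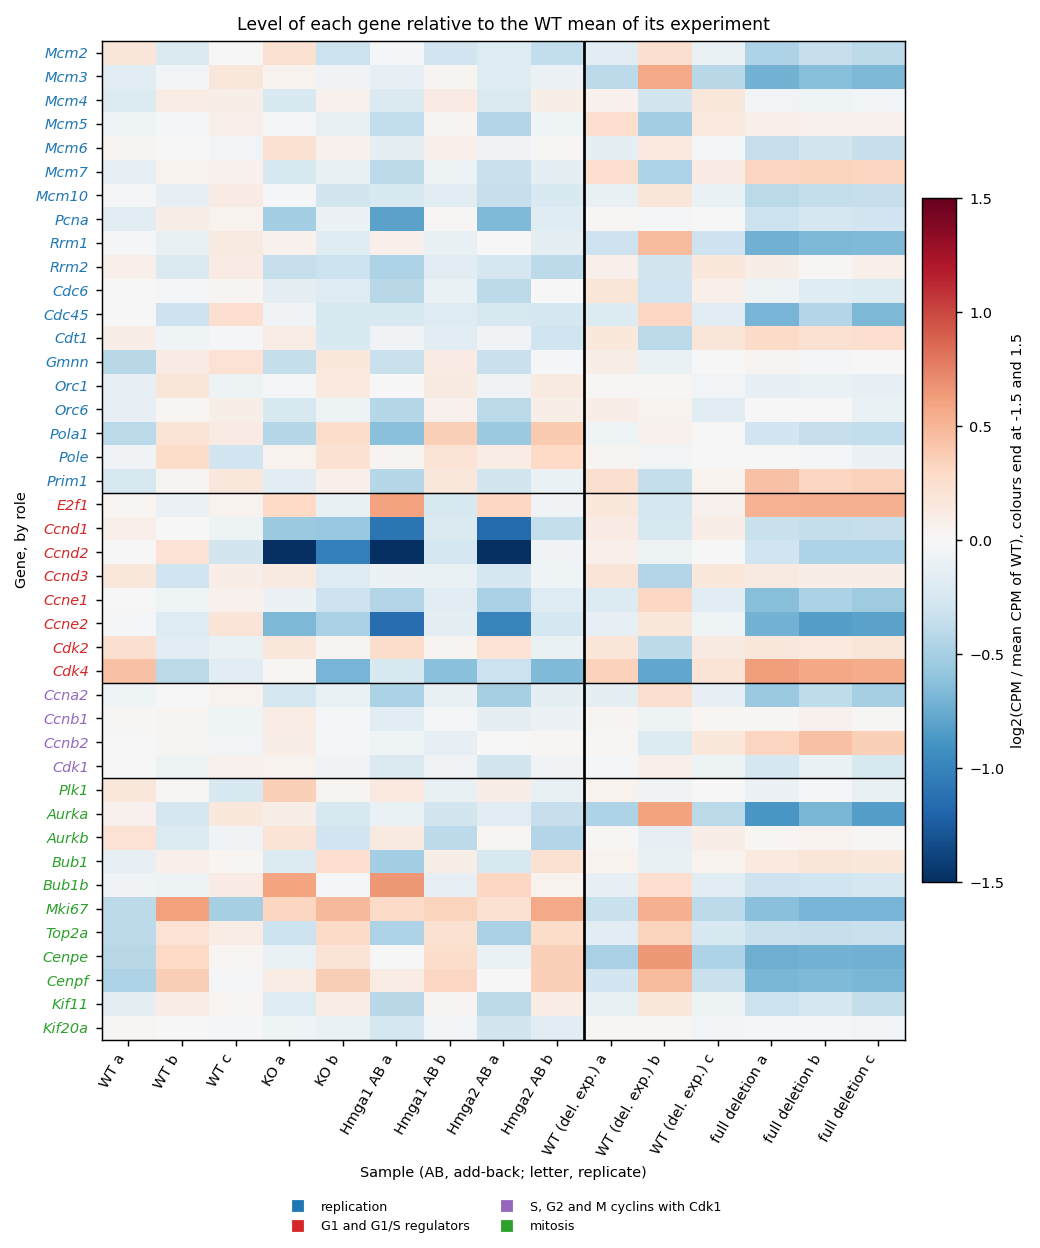
Levels of the 42 genes (rows, grouped by role) in the 15 samples (columns), as log2 of CPM over the mean CPM of the WT samples of the same experiment. The strongest blue cells are Ccnd2, Ccnd1 and Ccne2 in the batch a samples of the add-backs and Ccnd2 in KO, and WT b of the full-deletion experiment is red for Aurka, Cenpe and Mcm3 where the other WT samples are blue.

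Loss of Hmga1 in the KO line left no gene of the group past the threshold. Testing used edgeR's quasi-likelihood test in a model that includes batch, with a call at a Benjamini-Hochberg adjusted p under 0.05 over all genes tested. Of the 42 genes 0 were called in KO against WT, where 0.0647% of 13912 genes were called, and 0 had an adjusted p under 0.01 with a fold of at least 2, where 0.0216% of all genes did. At an unadjusted p under 0.05 there were 3 of the 42 genes (7.14%), against 12.6% of all genes. DESeq2 and limma-trend also called 0. The log2 fold changes of the group had a median of 0.01, beside -0.01 for all genes, with 23 genes above 0 and 19 below. WT c is absorbed by its own batch term, so these fold changes rest on batches a and b.

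The 3 genes with an unadjusted p under 0.05 act in G1. Ccnd2 encodes cyclin D2, a partner of Cdk4 (NCBIM37, chromosome 6 from 127075797 to 127101066). It had 77.4, 89.8 and 63.9 CPM in the WT samples (a, b, c), whereas KO a and b had 26.7 and 37.9 CPM. Both KO samples lay below all 3 WT samples. The fitted log2 fold change was -1.42 ± 0.31 (SE), with an adjusted p of 0.141, and KO had 34.6% of the WT level within batch a and 42.1% within b. Without WT b the value was -1.83 with an adjusted p of 0.0139, and in a fit of the KO and WT samples alone it was -1.39 with an adjusted p of 0.0218, so the call turns on which samples enter. These fits called 5.25% and 0.490% of all genes, and 2 and 1 of the 42. Ccnd1, cyclin D1 (chromosome 7 from 152115836 to 152125774), had 256, 242 and 231 CPM in WT and 165 and 164 in KO. Here too the KO samples lay below every WT sample, with a log2 fold change of -0.60 ± 0.24 and an adjusted p of 0.371. Cdk4, the kinase that both cyclins activate (chromosome 10 from 126500590 to 126504976), had 386, 215 and 256 CPM in WT and 289.9 and 175 in KO. The KO and WT ranges overlapped, Cdk4 being higher in batch a than in batch b in each genotype. Within a batch KO stood at 75.1% of WT in a and 81.6% in b (log2 fold change -0.36 ± 0.14, adjusted p = 0.37).

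The other 5 G1 genes gave log2 fold changes from -0.50 for Ccne2, cyclin E2, to 0.13 for E2f1, and none passed the test. Ccne2 had 38.5, 34.4 and 45.1 CPM in WT and 24.6 and 28.1 in KO, so that both KO samples again lay below WT, with an adjusted p of 0.455. Ccnd3, the third D-type cyclin, stood at 0.04 ± 0.16. The median of the 8 G1 genes was -0.26.

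Replication genes differed little between KO and WT. Their log2 fold changes had a median of -0.02 and ran from -0.27 for Pcna to 0.13 for Mcm6, and 0 of 19 had an unadjusted p under 0.05. Pcna, the clamp that holds the polymerase on DNA, had 258, 308 and 300.1 CPM in WT and 203 and 271 in KO. KO b lay within the range of the WT samples and KO a below it, and the difference did not pass the test (adjusted p = 0.463). The S, G2 and M cyclins and Cdk1 ran from -0.15 for Ccna2, cyclin A2, to 0.04 for Cdk1. Ccna2 had 459, 480.5 and 499 CPM in WT and 400.0 and 449 in KO, and both KO values lay below WT without passing the test (adjusted p = 0.619).

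Mitosis genes had a median log2 fold change of 0.07 in KO, from -0.09 for Kif20a, a kinesin of cell division, to 0.35 for Bub1b. Bub1b, of the spindle checkpoint, had 497, 489 and 563 CPM in WT and 777 and 511 in KO. KO a stood far above KO b, which lay among the WT samples, and the test gave an adjusted p of 0.451. Mki67, the gene of the proliferation marker Ki-67, had 593, 1194 and 549.8 CPM in WT, where b stood apart from a and c, and 976 and 1094 in KO. Its log2 fold change of 0.27 ± 0.21 became 0.71 with an adjusted p of 0.0437 without WT b. WT a is then the only WT sample that bears on the comparison, since WT c has its own batch term. KO stood at 165% of WT within batch a and at 91.7% within b. Over the alternative fits the value ran from -0.11 to 0.71, so it turns on which batch enters.

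**Figure D2:**
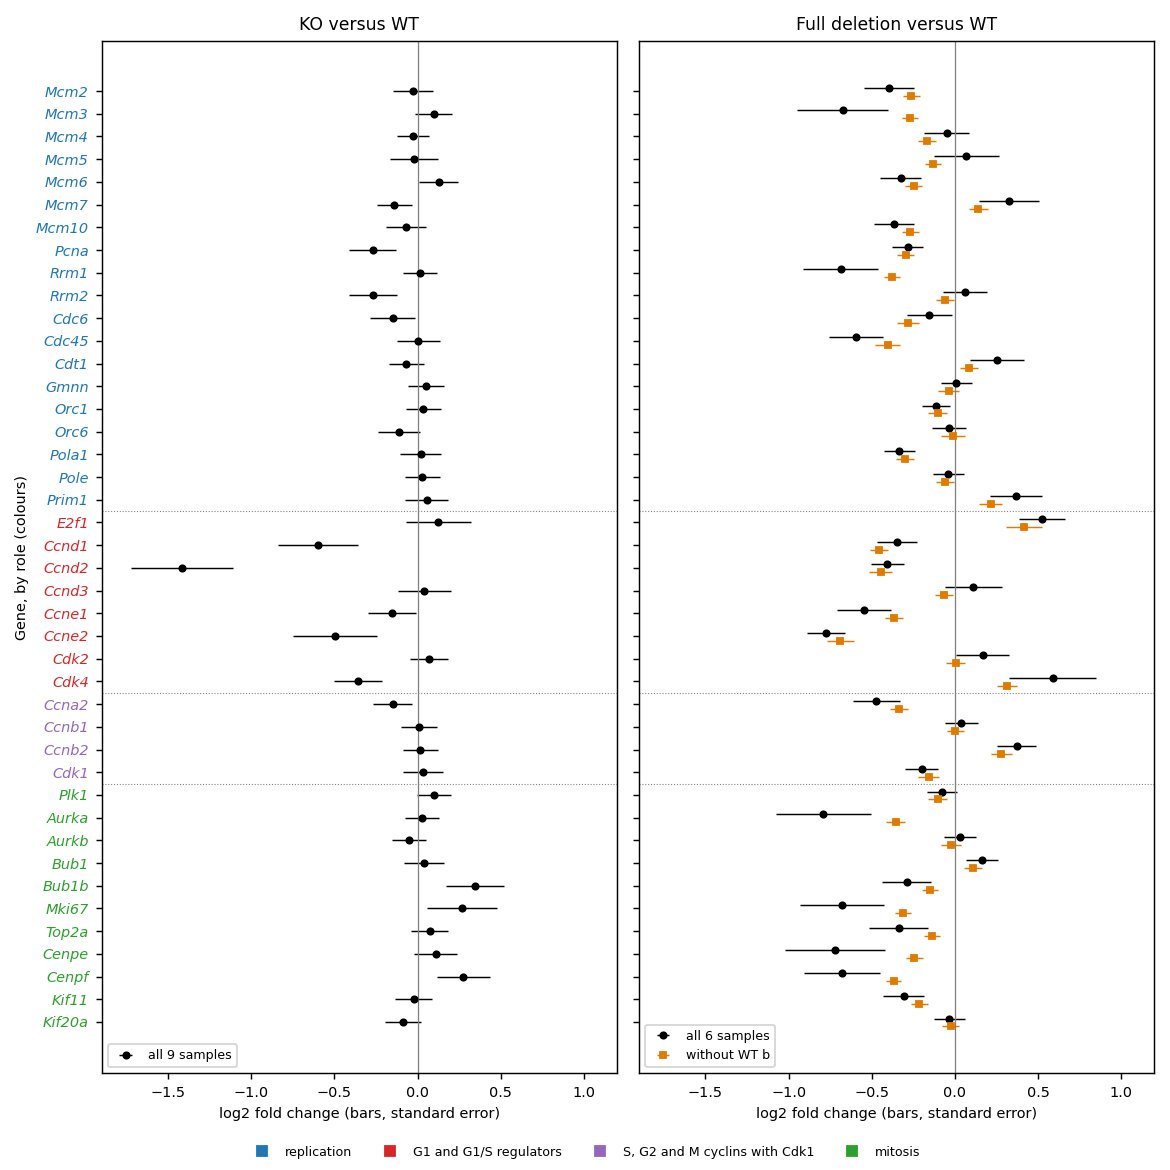
Log2 fold change of each gene (rows, coloured by role) with its standard error, KO against WT at left and full deletion against WT at right, with all samples (black) and, at right, also without WT b (orange squares). Ccnd2 at -1.42 stands farthest from 0 at left, and at right the error bars shrink for most genes once WT b is left out.

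The add-backs were compared with KO and with WT. The Hmga1 counts of the Hmga1 add-back lie within the range of KO, and the files do not show whether reads of the inserted cDNA are counted on the exons of Hmga1. None of the 42 genes was called in the Hmga1 add-back against KO, where 0% of all genes were called under either rule, or in the Hmga2 add-back against KO, where 0.0144% were called at an adjusted p under 0.05 and 0.00719% under the stricter rule. At an unadjusted p under 0.05 there were 0 of 42 in each of these comparisons, and DESeq2 and limma-trend called 0. Against WT, 0 were called in the Hmga1 add-back (0.0431% of all genes, and 0.0144% under the stricter rule) and 0 in the Hmga2 add-back (0.165% and 0.0647%). Without adjustment 5 genes were under 0.05 in each, against 13.3% and 16.9% of all genes. DESeq2 called 0 of the 42 in the first and 1 in the second, where it called 2.36% of all genes, and limma-trend called 0 in both.

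In the add-backs most G1 genes, and some replication genes, split by batch. Ccnd2 had 24.8 and 64.3 CPM in samples a and b of the Hmga1 add-back and 24.4 and 74.2 in those of the Hmga2 add-back. In batch a both add-backs stood near KO a, at 32.0% and 31.5% of WT a, whereas in batch b they stood at 71.6% and 82.6% of WT b and above KO b. Ccnd1 had 114 and 209 CPM in the Hmga1 add-back and 109 and 190.2 in the Hmga2 add-back, at 44.4% and 42.4% of WT a, and at 86.6% and 78.7% of WT b. Ccne2 did likewise, with 17.9 and 35.8 CPM and 19.8 and 32.9 CPM, or 46.4% and 51.4% of WT in batch a against 104% and 95.5% in batch b. Cdk4 stood at 63.0% and 59.3% of WT a, and at 85.8% and 84.3% of WT b. For each of these 4 genes both add-backs lay below KO in batch a and above KO in batch b, and with 1 sample per batch and line this difference has no test. The same held for Ccnd3 and Ccne1 and for the replication genes Mcm5, Mcm10, Cdc6, Orc6 and Pola1. Cdc6 stood at 75.8% and 76.8% of WT a, and at 95.4% and 101% of WT b. Among the G1 genes E2f1 and Cdk2 did not follow. E2f1 stood at 149% and 121% of WT a, and at 89.9% and 102% of WT b. The fits over both batches gave log2 fold changes against KO of 0.32 ± 0.31 and 0.44 ± 0.31 for Ccnd2 and of -0.09 and -0.20 for Ccnd1.

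Against WT, the Hmga2 add-back had log2 fold changes of -0.98 for Ccnd2 (adjusted p = 0.2), -0.80 for Ccnd1 (adjusted p = 0.19), -0.55 for Ccne2 and -0.50 for Cdk4. Leaving out WT b, which removes the batch b comparison with WT, gave 5 calls among the 42 genes there, or 11.9%, where 9.36% of all genes were called. They were Ccnd1 at -1.11 (adjusted p = 0.0346), Ccnd2 at -1.43 (adjusted p = 0.0256), Ccne2 at -0.92 (adjusted p = 0.0451), Cdk4 at -0.68 (adjusted p = 0.0355) and Mki67 at 0.70 (adjusted p = 0.035). In the Hmga1 add-back the same step called 1 of the 42, Ccnd2 at -1.54 (adjusted p = 0.0269), where 5.75% of all genes were called. Replication and mitosis genes of the add-backs had medians of -0.06 and -0.08 against WT in the Hmga1 add-back and of -0.10 and -0.01 in the Hmga2 add-back.

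**Figure D3:**
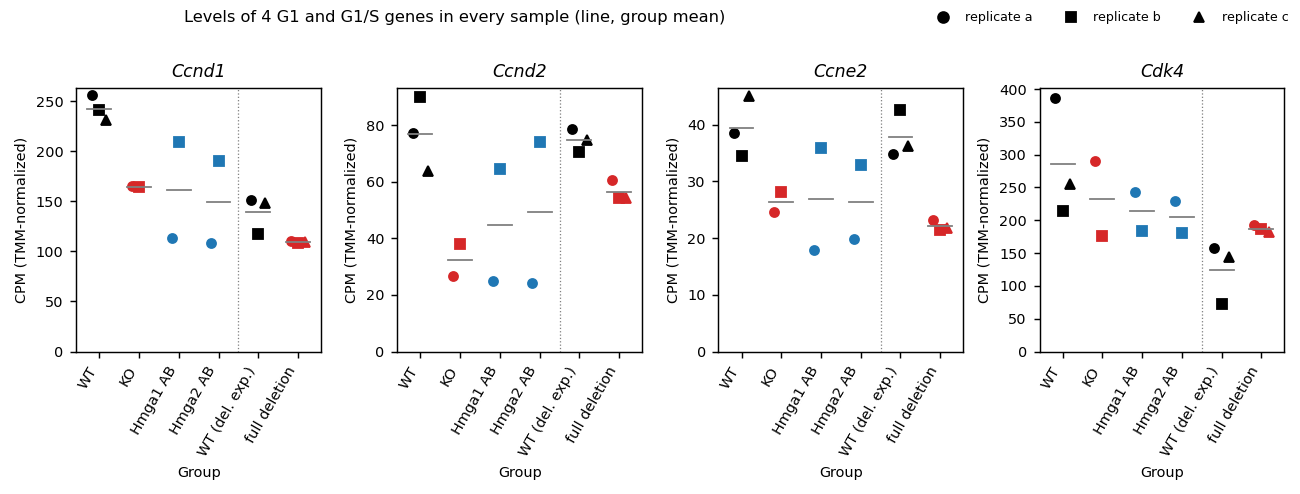
CPM of Ccnd1, Ccnd2, Ccne2 and Cdk4 in every sample, by group, with circles, squares and triangles for replicates a, b and c and a line at each group mean. In the add-backs the circles (batch a) of Ccnd1, Ccnd2 and Ccne2 sit far below the squares (batch b), and all 3 full-deletion samples of Ccnd2 and Ccne2 sit below every WT sample of that experiment.

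Within the KO experiment, more of these genes were called between batches than between genotypes. These counts are not like for like. The batch comparison has a sample of each of 4 genotypes on either side, whereas a genotype comparison rests on batches a and b of 2 groups. Between batch b and batch a of the KO experiment, with genotype in the model, 20 of 42 genes (47.6%) were called, 12 higher and 8 lower in b, and DESeq2 called 23 and limma-trend 22, with 33.4% and 35.8% of all genes. Of all genes 35.6% were called, 18.6% higher and 17.1% lower, so that the share of the group lies somewhat above that of all genes. No member passed the stricter rule, which 2.34% of all genes did. The median of the group was 0.11, beside -0.03 for all genes, and scaling by summed counts, which moved the median of all genes to -0.15, turned it to -0.01 and the split to 8 higher and 10 lower. The split of all genes moved the same way, from 2581 higher and 2378 lower to 1618 higher and 3486 lower. Leaving out either KO sample left 11 calls, either Hmga1 add-back sample 12 and either Hmga2 add-back sample 9. Calls among all genes fell in these fits too, from 4959 genes to between 2519 and 2717. Batch a was sequenced more deeply in each genotype, and the AT content of exons moved with the shift, with a Pearson r of 0.55 over 12505 genes and 0.63 over the 42 genes, a description over genes of the same libraries. The part of AT content in these calls was not tested. AT content here is that of the exons in the NCBIM37 annotation, which can differ from the exons on which reads were counted. Depth, day of library preparation and flow cell cannot be told apart in this design. The methods do not say whether cultures of one letter were harvested together.

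Of the 19 replication genes, 6 were higher and 1 lower in batch b. Pola1 (chromosome X from 90550106 to 90877494), whose promoter is shown above, moved most of the replication genes. It had 186, 185, 160.4 and 169 CPM in batch a and 286, 297, 316 and 324 in batch b, each list in the order WT, KO, Hmga1 add-back and Hmga2 add-back. Every b value lay above every a value, with a log2 fold change of 0.81 ± 0.088 and an adjusted p of 0.00119. Pcna had 258, 203, 165 and 182 CPM in a and 308, 271, 292 and 254 in b. The b value was higher in each genotype though the lists overlapped, and the log2 fold change was 0.49 ± 0.099 (adjusted p = 0.00761). Gmnn, the inhibitor of origin loading, had 86.7, 90.3, 91.6 and 91.5 CPM in a and 126, 129, 126 and 114 in b (0.45 ± 0.076 on the log2 scale, adjusted p = 0.00393). Mcm4, a helicase subunit, had 306, 304, 306 and 304 CPM in a and 382, 370.4, 385 and 375 in b. Prim1, the primase that lays down RNA primers, had 63.4, 66.6, 55.5 and 61.7 CPM in a and 77.0, 79.2, 84.4 and 70.0 in b, and Orc6, of the origin recognition complex, had 118, 109, 95.3 and 96.9 in a and 131, 122, 135 and 137 in b. In Gmnn, Mcm4, Prim1 and Orc6 the batches did not overlap, and the last 3 had log2 fold changes of 0.31, 0.33 and 0.33. Mcm2, another subunit of the same helicase, went the other way, with 636, 654, 550.5 and 489 CPM in a and 479.9, 446, 459 and 432 in b, and fell by 0.35 on the log2 scale (adjusted p = 0.016). The helicase subunits thus did not move as a set: Mcm3, Mcm5, Mcm6 and Mcm7 gave 0.07, 0.18, 0.02 and 0.20 without passing the test. The exons of Mcm2 hold 44.5% AT and those of Mcm4 54.5%, and Pola1 has the highest AT content of the replication genes, at 58.8%. The other genes that rose, Pcna, Prim1, Orc6 and Gmnn, hold 56.6%, 55.4%, 53.5% and 49.5%. Gmnn thus rose with a lower AT content than the rest. Rrm1, at 55.6%, was lower in b in each genotype without passing the test.

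Of the 8 G1 genes, 1 was higher and 3 were lower in batch b. Ccnd2 had 77.4, 26.7, 24.8 and 24.4 CPM in a and 89.8, 37.9, 64.3 and 74.2 in b (0.92 ± 0.22, adjusted p = 0.0147). It was higher in b in each genotype, with the largest gaps in the add-backs. Cdk4 had 386, 289.9, 243 and 229 CPM in a and 215, 175, 184 and 181 in b, without overlap, and fell by 0.58 (adjusted p = 0.00464). E2f1 had 14.5, 17.5, 21.6 and 17.6 CPM in a and 13.4, 13.2, 12.1 and 13.7 in b (-0.43 ± 0.14, adjusted p = 0.0402), and Cdk2, the partner of cyclins E and A, had 94.6, 90.1, 96.5 and 93.6 in a and 71.5, 82.8, 82.6 and 74.8 in b (-0.27, adjusted p = 0.0322). None of the 4 genes of the S, G2 and M cyclins and Cdk1 was called, with values from -0.03 for Ccnb2 to 0.24 for Ccna2.

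Of the 11 mitosis genes, 5 were higher and 4 lower. Top2a (chromosome 11 from 98854257 to 98885503) had 1255, 1314, 1190.3 and 1177 CPM in a and 1907, 2015, 1927 and 1996 in b, a rise of 0.67 ± 0.078 on the log2 scale (adjusted p = 0.00136) with no overlap. A small nucleolar RNA, SNORA32, overlaps its annotated exons on the same strand. These span 9070 bases, against 5567 in the counted exons, and whether reads of SNORA32 enter its counts is not shown. Cenpe, a kinetochore motor, had 255, 319, 341 and 318 CPM in a and 419.5, 394, 408 and 435 in b, and Cenpf, another kinetochore protein, had 531, 789, 788 and 737 in a and 944, 949, 911 and 941 in b. Bub1 had 165, 155, 126 and 151 CPM in a and 189, 213, 191 and 210.1 in b, and Kif11, the motor that pushes spindle poles apart, had 456, 443, 379.7 and 383 in a and 547, 547, 523 and 547 in b. These 4 genes rose by 0.43, 0.41, 0.43 and 0.39, each with the b samples above the a samples. Bub1 is a kinase, and the other 4 kinases of mitosis in the group went the other way. Aurkb, of the chromosomal passenger complex, had 92.5, 91.3, 87.3 and 80.9 CPM in a and 69.0, 64.9, 60.6 and 58.2 in b (-0.48 ± 0.073, adjusted p = 0.003). Aurka had 192, 196, 172 and 165 CPM in a and 154, 157, 152 and 145 in b, Plk1, the polo-like kinase, 207, 237, 205 and 198 in a and 189, 189, 171 and 170.3 in b, and Bub1b 497, 777, 808 and 640.0 in a and 489, 511, 476 and 534 in b. Their log2 fold changes were -0.25, -0.23 and -0.41, and of these 4 genes Bub1b overlapped between the batches. The 5 mitosis genes that rose have exons of 56.8% to 59.5% AT and the 4 that fell have 44.0% to 51.1%. As for the promoters, Top2a and Aurka, which both hold CHR and CCAAT matches, moved in opposite directions.

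**Figure D4:**
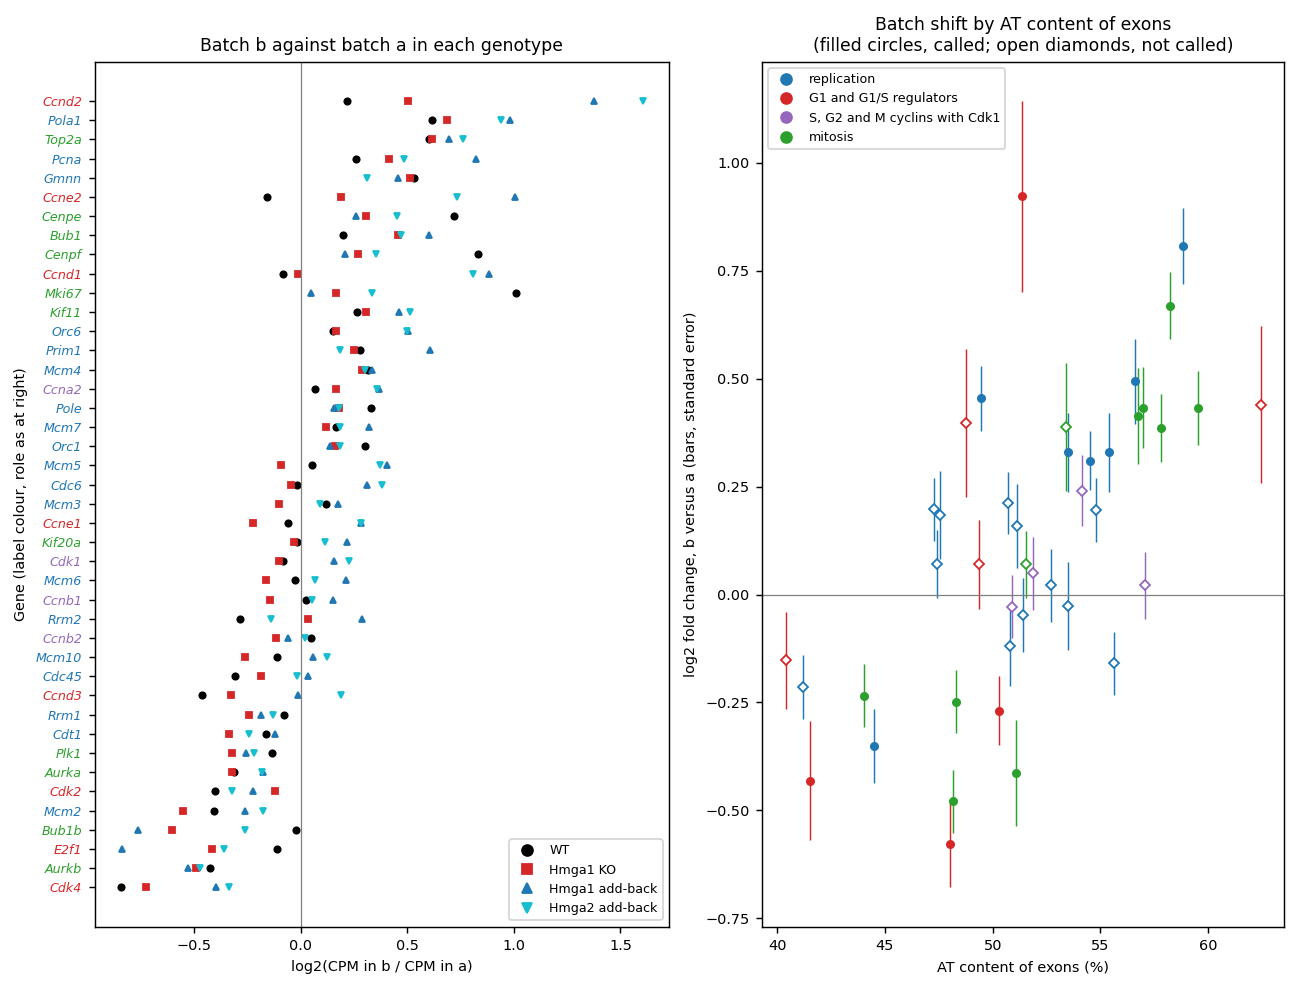
Left, log2 of CPM in batch b over CPM in batch a for each of the 42 genes in each of the 4 genotypes. Right, the fitted batch shift with its standard error against the AT content of the gene's exons, with called genes as filled circles, where Pola1 and Top2a lie at the upper right and Cdk4, Aurkb and Mcm2 at the lower left.

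A pair of cyclin genes was lower in the full deletion of Hmga1. Of the 42 genes 2 (4.76%) were called, both lower in the deletion line, where 8.25% of 13098 genes were called, 4.47% higher and 3.77% lower, so the share of the group is below that of all genes. None passed the stricter rule, against 0.0687% of all genes. At an unadjusted p under 0.05 there were 21 of 42 (50%), against 37.0% of all genes. DESeq2 called 17, of them 2 higher and 15 lower, where it called 24.7% of all genes, and limma-trend 2, where it called 7.76%. The median log2 fold change was -0.18, beside 0.04 for all genes, with 28 of 42 below 0. Scaling by summed counts shifted the median of all genes to 0.32 and that of the group to 0.10, and called 0 of the 42, where it called 5.07% of all genes.

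Ccne2 (chromosome 4 from 11118498 to 11131926) had 34.9, 42.5 and 36.3 CPM in the WT samples (a, b, c), whereas the deletion had 23.2, 21.5 and 21.7. All deletion samples lay below all WT samples, WT b being the highest, with a log2 fold change of -0.78 ± 0.11 and an adjusted p of 0.0216. Ccnd2 had 78.5, 70.6 and 74.7 CPM in WT and 60.6, 54.2 and 54.3 in the deletion, again without overlap, and fell by 0.41 ± 0.098 (adjusted p = 0.048). Both calls rest on few samples. Without WT c, or without any 1 of the deletion samples, neither passed the test, with adjusted p from 0.0727 to 0.197, and without WT a Ccne2 alone did. The loss was general: without WT c 0.0305% of all genes were called, and without a deletion sample 0.0228% to 0.0230%. With all samples it was 8.25%, and without WT a 9.40%. With no filter on low counts, with a mean count of at least 50 or with the letters as a block, Ccnd2 lost its call (adjusted p = 0.0556, 0.0501 and 0.071).

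The other G1 genes of the deletion line pointed both ways. Cyclin D1, Ccnd1, had 151, 118 and 149 CPM in WT and 111, 109 and 109 in the deletion, and Ccne1, cyclin E1, had 455, 653 and 470.1 and 338, 378 and 362. Their log2 fold changes of -0.35 ± 0.12 and -0.55 ± 0.16 did not pass the test (adjusted p = 0.0895 and 0.0679), though the groups did not overlap. Cdk4 stood above WT, with 157, 72.3 and 143 CPM in WT and 192, 186 and 182 in the deletion. WT b lay far below the other WT samples, and the value of 0.59 ± 0.26 had an adjusted p of 0.148. E2f1 had 11.2, 8.33 and 10.5 CPM in WT and 14.3, 14.5 and 14.4 in the deletion (0.53 ± 0.14, adjusted p = 0.0562).

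Among replication genes, 0 of 19 were called, with a median of -0.11. Rrm1, a subunit of the enzyme that makes deoxynucleotides and whose promoter is shown above, had the largest change. It had 790.1, 1359 and 790.0 CPM in WT and 593, 616 and 617 in the deletion. The samples did not overlap, but WT b stood far above WT a and c, and the value of -0.69 ± 0.22 had an adjusted p of 0.0798. Mcm3 had 1085, 2117 and 1064 CPM in WT and 868, 911 and 891 in the deletion (-0.68 ± 0.27). Cdc45, which joins the helicase when it is switched on, had 59.0, 84.9 and 60.8 CPM and 42.2, 50.4 and 42.8 (-0.59 ± 0.16, adjusted p = 0.0587). The remaining replication genes ran from -0.40 for Mcm2 to 0.37 for Prim1. In the cyclin and Cdk1 group 0 of 4 were called. Ccna2 had 492, 641 and 501 CPM in WT and 372, 419.7 and 386 in the deletion (-0.47 ± 0.14, adjusted p = 0.0685), whereas Ccnb2, a B-type cyclin, had 71.7, 61.3 and 78.8 and 88.2, 95.7 and 90.1 (0.37 ± 0.12).

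Mitosis genes had a median of -0.31, with 9 of 11 below 0 and 0 called, and without WT b the median was -0.15. Aurka had 450.1, 941 and 467 CPM in WT and 338, 386 and 350.4 in the deletion. WT b had about as much as the other WT samples put together, and the log2 fold change of -0.79 ± 0.28 had an adjusted p of 0.0952. Cenpe had 301, 663 and 307 CPM in WT and 254, 258 and 257 in the deletion, Cenpf 1084, 1837 and 1055 and 823, 837 and 826, and Mki67 1003, 1831 and 965 and 817, 781 and 778. In each of them WT b was the highest sample and the deletion samples lay below WT a and WT c. Aurkb, Kif20a and Plk1 stood at 0.03, -0.03 and -0.08, and Bub1 at 0.16.

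The counts of called genes in this experiment turn on WT b. Against the mean of WT a and c, its mitosis genes had a median log2 difference of 0.39 and its G1 genes one of -0.35, while replication genes centred on -0.04. In it 35.7% of the 42 genes lay more than 0.5 from the other WT samples on the log2 scale, and 37.5% of all genes did. Without WT b, 29 of the 42 genes (69.0%) were called. Of them 24 (57.1%) were lower and 5 (11.9%) higher in the deletion, where 22.0% of 13163 genes were lower and 20.5% higher. By role, 11 of 19 replication genes were lower and 2 higher, 4 of 8 G1 genes were lower and 2 higher, 2 of 4 of the cyclin and Cdk1 group were lower and 1 higher, and 7 of 11 mitosis genes were lower with 0 higher. The medians were -0.17, -0.21, -0.08 and -0.15, beside 0.03 for all genes, and the changes were small. Ccne2 at -0.69 ± 0.080 (adjusted p = 1.96e-06), Ccnd1 at -0.45 ± 0.055 (adjusted p = 2.72e-06), Ccnd2 at -0.45 ± 0.068 (adjusted p = 3.46e-05) and Cdc45 at -0.41 ± 0.077 (adjusted p = 0.00033) had the largest falls. E2f1 at 0.41 ± 0.11 and Cdk4 at 0.31 ± 0.058 had the largest rises. Mcm5 turned from 0.07 to -0.13 with an adjusted p of 0.0436. With 2 WT samples left, this comparison rests on WT a and c, which lay close together. With all 6 samples and no test, all deletion samples lay below all WT samples in 22 of 42 genes (52.4%), where 24.6% of all genes did, and above them in 7 (16.7%), where 26.7% did. The exons of the group hold a median of 51.4% AT, beside 49.7% for all genes matched, and the fold changes of this comparison had a Pearson r of -0.34 with AT content over 11800 genes and -0.37 over the 42 genes. The part of AT content in these counts was not tested.

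A joint fit of all 15 samples compared the effect of the full deletion with that of the KO. Of the 42 genes 0 were called as differing, where 0.307% of 13671 genes were, and 0 under the stricter rule, where 0.0951% were. At an unadjusted p under 0.05 there were 10 of 42 (23.8%), against 18.4% of all genes, and DESeq2 and limma-trend called 0. The largest differences, full-deletion effect minus KO effect, were 0.999 ± 0.34 for Ccnd2 (adjusted p = 0.226), -0.97 ± 0.33 for Cenpf, -0.96 ± 0.39 for Mki67 and 0.94 ± 0.35 for Cdk4. Cdk4 thus stood at -0.36 for the KO and 0.59 for the deletion line, with neither value and not their difference past the test. Without WT b of the full-deletion experiment 3 of the 42 differences (7.14%) were called, where 4.87% of all genes were: Cdk4 at 0.64 (adjusted p = 0.037), Cenpf at -0.68 (adjusted p = 0.0319) and Rrm1 at -0.43 (adjusted p = 0.0311). Cyclins D1, D2 and E2 had negative fold changes in both lines, -0.60 and -0.35 for Ccnd1, -1.42 and -0.41 for Ccnd2, and -0.50 and -0.78 for Ccne2. These comparisons share no samples. Of the 42 genes, 19 had negative fold changes in the KO and 28 in the deletion line. Other members, Pcna and Ccna2 among them, were negative in both lines too. A sign shared by both lines is therefore not particular to these cyclins, and it was not tested.

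Other genes of the same pathways were taken from lists by role, whose counts stand beside the 35.6% of all genes called between batches and the 8.25% called in the full deletion. Of 42 further replication genes 0 were called in KO against WT, 15 were higher and 6 lower in batch b than in a, and 1 was lower in the full deletion, against 17 lower and 2 higher without WT b. The gene called with all samples was Orc4, of the origin recognition complex, with 122, 161 and 141 CPM in WT and 85.6, 103 and 90.1 in the deletion and a fall of 0.60 on the log2 scale (adjusted p = 0.0415). Of 40 further mitosis genes 0 were called in KO, 13 were higher and 10 lower in batch b, and 1 was lower in the full deletion, against 15 lower and 7 higher without WT b. With all samples it was Aspm, a protein of the spindle poles, with 399.8, 476 and 388 CPM in WT and 297, 307 and 294 in the deletion and a fall of 0.49 (adjusted p = 0.0486). Ube2c, the ubiquitin-conjugating enzyme of the anaphase-promoting complex, passed the stricter rule between batches. It had 411, 508, 354 and 349 CPM in batch a and 227, 199, 165 and 197 in batch b, in the order of genotypes used above, a fall of 1.03 (adjusted p = 0.000888). Of 27 inhibitors, pocket proteins and other G1/S regulators, 0 were called in KO, 8 were higher and 3 lower in batch b, and 1 of the 26 tested was lower in the full deletion, against 11 lower and 2 higher of the 27 tested without WT b. Without WT b 22.0% of all genes were lower and 20.5% higher.

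The inhibitor called in the full deletion with all samples was Cdkn1c, the Cdk inhibitor p57, from an imprinted gene. It had 45.0, 47.4 and 41.3 CPM in WT and 20.9, 20.04 and 20.04 in the deletion. The groups were well apart, WT b included, and Cdkn1c fell by 1.13 ± 0.10 (adjusted p = 0.00913), past the stricter rule as well. In the KO experiment Cdkn1c had 83.3, 35.7 and 81.3 CPM in WT and 25.6 and 22.8 in KO, a value of -1.28 ± 0.34 with an adjusted p of 0.202. Cdkn1a, the Cdk inhibitor p21, passed the stricter rule between batches. It had 12.7, 21.5, 38.7 and 41.0 CPM in batch a and 9.47, 11.0, 8.92 and 9.08 in batch b, a fall of 1.43 ± 0.29 (adjusted p = 0.0074). The a samples of the add-backs were the highest of the experiment for Cdkn1a and the lowest for Ccnd1, Ccnd2 and Ccne2. In the full deletion Cdkn1a had 8.30, 4.04 and 7.23 CPM in WT and 13.4, 12.6 and 12.6 in the deletion (0.97 ± 0.24, adjusted p = 0.0515). The lists of feeder fibroblast, pluripotency and early differentiation markers had 0 calls in KO, but the lists were not all unchanged. Of the markers tested, 1 of 6, 2 of 12 and 6 of 9 had an unadjusted p under 0.05, in that order. Of all genes 12.6% did. The median log2 fold changes of these lists were 0.56, 0.06 and -1.19, beside -0.01 for all genes. In the full deletion with all samples 1 marker of early differentiation was called, Otx2, higher, and none of the feeder and pluripotency markers. Without WT b 1 of 5 feeder markers was higher, 3 of 12 pluripotency markers were higher and 3 lower, and 2 of 7 early differentiation markers were higher.

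Reads that several places of the genome could have given limit some of these values, since the authors kept 1 alignment of each such read at random. Of all stretches of 47 bases in the exons, 32.2% of those of Ccnb1, 31.8% of those of Pcna, 17.2% of those of Mcm7, 16.8% of those of Ccnd3, 13.8% of those of Cdc6 and 10.4% of those of Plk1 occur elsewhere in the genome (NCBIM37). In Ccnd1, Ccnd2 and Ccne2 the share was 0%, and in Cdk4 it was 1.85%. These shares are of annotated exons, which differ in length from the counted ones. Annotated and counted exons span 2400 and 1260 bases in Pcna, 4217 and 2316 in Ccnb1, and 2255 and 9699 in Ccnd3. The shares of the counted exons may therefore be other than these. The annotated exons of Mcm7 also overlap the microRNA genes Mir25 and Mir93 on its own strand, and whether reads of these enter its counts is not shown.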

How the data were processed

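Total RNA of 15 mouse ESC samples was sequenced after removal of rRNA, with libraries that keep the strand. The authors cut 3 bases from the start of reads, used bowtie through QuasR to align them to mm9, kept 1 alignment at random for reads with several best places, and deposited raw counts per gene on the exons of UCSC knownGene genes, counted on the matching strand. Per the labels, bcl2fastq 2.17 made the read files. No column was left unused.

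From the deposited counts, every gene averaging 10 counts or more entered edgeR's quasi-likelihood test (version 4.0.16, R 4.3.3) with TMM scaling, and Benjamini-Hochberg adjustment ran over all of them. The KO experiment was fitted with its 9 samples and batch as a term, the full-deletion experiment with its 6 samples and no batch, and the difference of effects with all 15. Calls needed an adjusted p under 0.05. The stricter rule, which is that of the study, asks for an adjusted p under 0.01 and at least 2-fold. CPM are TMM-scaled, and RPKM use the exonic length given in the files. The fit was tested on simulated data with known changes.

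The 42 genes and the other lists were chosen with earlier results of these data known. Values per sample are given for genes called in any comparison and for those with the largest change in each role, and for other pathway genes that passed the stricter rule. Orc4, Aspm and Otx2, the single calls of their lists in the full deletion, fall outside that rule and were named after their values were seen. Ccnd1, Ccne1, Mcm3, Cdc45, Ccnb2 and Mki67 also fall outside it, and their values per sample were added with the results known. In the KO experiment the letters mark shared batches per the methods, and deviations of samples with the same letter correlated at 0.360 to 0.807 between groups. In the full-deletion experiment they correlated at 0.0839, 0.0944 and -0.0556, so that its letters do not pair the samples. Alternatives were other scalings (DESeq2 size factors, summed counts), filters (none, a mean count of at least 50) and tests (DESeq2 1.42.0, limma-trend of limma 3.58.1 with a prior count of 2), the block, the compared groups alone, and each sample left out in turn. Promoters came from RefSeq (GRCm38.p6) and gene positions and exon composition from the NCBIM37 annotation, which is the build of mm9. The exons of that annotation can differ from the knownGene exons on which reads were counted. Counting error and replicate spread are not separated in these tests. Figures were drawn with matplotlib 3.10.9.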

Additional observations from a re-analysis of the deposited data

How the results depend on the processing

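Of the 42 genes, 0 were called in KO against WT, and 1 (Ccnd2) in a fit of these 2 groups alone, where 0.490% of all genes were called. For the Hmga2 add-back against WT, DESeq2 called 1 and a fit of the 2 groups alone 2, against 0. These fits called 2.36% and 2.52% of all genes, against 0.165%. Without the batch block, counts stayed at 0 in the 5 genotype comparisons of the KO experiment, where the letters pair the samples. In the full deletion, 2 were called, against 0 with summed counts, 1 with no filter, 1 with a mean count of at least 50, 17 with DESeq2 and 1 with the replicate block, whose letters do not pair the samples there. In that order these fits called 5.07%, 7.62%, 9.26%, 24.7% and 3.02% of all genes, against 8.25%. Under the stricter rule 0 were called in the full deletion and 0 between batches, against 2 and 20. Leaving out 1 sample at a time gave 0 to 2 calls in KO against WT, 0 to 1 in the Hmga1 add-back and 0 to 5 in the Hmga2 add-back against WT, 9 to 21 between batches, 0 to 29 in the full deletion and 0 to 3 in the difference of effects. The highest counts came without WT b of the KO experiment for the genotype comparisons and without WT b of the full-deletion experiment for the last pair. Calls among all genes moved widely as well when 1 sample was left out. They ran from 2519 to 5847 between batches, 3 to 5592 in the full deletion and 7 to 667 in the difference of effects. With all samples these counts were 4959, 1080 and 42. Mcm5, at 0.07 in the full deletion with all samples, ran from -0.131 without WT b to 0.203 without WT a. Among all genes, DESeq2 called 3232 in the full deletion against 1080, and 199 in KO against WT against 9. No filter gave 93 in KO against WT and the block 396 in the full deletion. The cause of these changes was not tested. Each group holds 2 or 3 cultures of 1 line, which limits the precision of each fold change.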
